A study of Homo sapiens with 16 samples.

Results

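The MYC and MAX network is a set of basic helix-loop-helix leucine zipper proteins and close partners that compete for the same DNA sites. The 10 genes described here, MYC, MYCN, MAX, MXD1, MXD3, MXD4, MXI1, MNT, MLX and MGA, were chosen by symbol among the 56527 gene names in the expression table, and their read counts were joined through the Ensembl identifier. They were followed through 16 RNA-Seq libraries of 2 pancreatic ductal adenocarcinoma cell lines, Mia-PaCa-2 and PANC-1, kept in DMEM with fetal bovine serum. Each line had an untreated control, 40 nM gemcitabine, 50 uM genistein and both drugs together, all at 24 h, with 2 replicates per group. Gemcitabine is a nucleoside analogue that blocks DNA synthesis, and genistein is a soy isoflavone. Genistein was dissolved in DMSO, and whether the control dishes received DMSO is not given in the sources used here. Each line is a single established culture, so n = 2 counts biological replicates of one line and not patients.

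MYC binds DNA as a heterodimer with MAX and activates genes for ribosome production, nucleotide synthesis and cell division. MXD1, MXD3, MXD4, MXI1 and MNT also need MAX, and their dimers recruit SIN3 corepressors to the same CACGTG sites (the E-box), so they oppose MYC. MGA is a large MAX partner found in a Polycomb-related repressor complex, while MLX pairs with some MXD proteins, with MNT and with the glucose-responsive factors MLXIP (MondoA) and MLXIPL (ChREBP).

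Counts on genes ran from 12943482 to 31991860 per library. Pancreatic acinar and endocrine markers summed to at most 0.367 and 0.17 FPKM in any library, while epithelial and mesenchymal markers summed to at least 852 and 1410 FPKM. EPCAM and CDH1 did not exceed 1 FPKM in any Mia-PaCa-2 library, while the other 4 of 6 epithelial markers did. The mesenchymal marker CDH2 did not exceed it there either, while the other 3 of 4 did. Of the markers of other cells, 1 of 4 fibroblast genes and 1 of 3 leucocyte genes (CD68) exceeded 1 FPKM in each line, and 1 of 3 endothelial genes did in Mia-PaCa-2 and 0 in PANC-1. FPKM is a read level scaled to transcript length and sequencing depth, and it is used here for levels and for comparisons between genes. The chi-square per degree of freedom between replicates was 35.2 for the PANC-1 controls and 2.86 to 21.6 in the other groups. It was taken on raw counts and grows with depth. The PANC-1 controls were the deepest pair (21889823 and 31991860 counts), so it does not rank the pairs by their spread.

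The promoters of 3 of the 4 members whose gemcitabine response differed between the lines (described further on) are shown. MYC differed too, but no window of MYC is shown or counted below. Each window spans 300 bases around a RefSeq start site, most of them upstream, on build GRCh38.p14, with CACGTG, or its variant CACGCG read on either strand, in capitals. The MXD4 window (chr4:2262060-2262359, minus strand) held CACGTG at position -238, the MLX window (chr17:42566850-42567149, plus strand) at position -50, and the MXD3 window (chr5:177312703-177313002, minus strand) held CGCGTG at position 8, counted from the start base as 0.
MXD4: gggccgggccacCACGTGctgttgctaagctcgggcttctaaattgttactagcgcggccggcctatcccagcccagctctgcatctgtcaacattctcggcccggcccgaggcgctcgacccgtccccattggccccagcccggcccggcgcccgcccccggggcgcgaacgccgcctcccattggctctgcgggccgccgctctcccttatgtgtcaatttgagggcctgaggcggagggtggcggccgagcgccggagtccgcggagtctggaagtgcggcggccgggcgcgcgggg
MLX: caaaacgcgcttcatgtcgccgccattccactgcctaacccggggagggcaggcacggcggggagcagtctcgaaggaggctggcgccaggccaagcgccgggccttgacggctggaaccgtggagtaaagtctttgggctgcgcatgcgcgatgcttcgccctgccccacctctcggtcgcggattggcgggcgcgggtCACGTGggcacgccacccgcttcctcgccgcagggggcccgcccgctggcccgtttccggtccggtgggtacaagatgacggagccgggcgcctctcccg
MXD3: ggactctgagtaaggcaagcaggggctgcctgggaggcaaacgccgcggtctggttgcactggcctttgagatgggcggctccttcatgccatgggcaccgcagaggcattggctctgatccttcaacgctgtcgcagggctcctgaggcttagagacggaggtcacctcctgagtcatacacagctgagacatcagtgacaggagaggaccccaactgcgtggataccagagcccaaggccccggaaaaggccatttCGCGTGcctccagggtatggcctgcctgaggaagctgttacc
Among the 14 windows of 9 members, 3 held CACGTG (MXD4, MNT and MLX) and 3 held CACGCG or CGCGTG (MXD3, MXI1 and MGA). Of 35116 windows of this length, 7.26% held the first and 11.4% held either form of the second. These are letter matches only, and no binding was measured.

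On GRCh37, MYC (ENSG00000136997) lies at chr8:128747680-128755197, MAX at chr14:65472892-65569413, MXD1 at chr2:70124820-70170077 and MXD3 at chr5:176728462-176739758. MXD4 lies at chr4:2249159-2263836, MXI1 at chr10:111967363-112047123, MNT at chr17:2287367-2304398, MLX at chr17:40719090-40725257, MGA at chr15:41913332-42065279 and MYCN at chr2:16080672-16087129. All are annotated as protein-coding genes, and counts cover their exons.

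In untreated cells MYC was the most abundant member of the network in both lines. In Mia-PaCa-2 it stood at 95.8 ± 4.95 FPKM (SD, n = 2), followed by MAX at 38.3 ± 2.46, MXD4 at 36.7 ± 5.22, MLX at 31.3 ± 3.0 and MXD3 at 18.9 ± 4.75. MNT, MXI1, MGA and MXD1 lay between 2.15 and 5.41 FPKM. The ranges of MAX and MXD4, of MXD4 and MLX, and of MNT and MXI1 overlapped, so their order was not resolved. In PANC-1, MYC stood at 36.4 ± 2.36 FPKM (n = 2) and MLX at 31.9 ± 1.39. MXD4 at 21.1 ± 4.39 and MAX at 20.1 ± 2.77 came next and overlapped, and so did MNT at 13.5 ± 2.47 with MXD3 at 12.1 ± 4.3, and MXD3 with MXI1 at 8.62 ± 0.838. MGA at 5.25 ± 0.583 and MXD1 at 4.48 ± 0.0103 were lowest among the genes detected. MYCN, a neuronal paralogue of MYC, had at most 1 count in every library and was not tested.

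The untreated lines differed in 6 of the 9 members tested. Several conditions had to hold for a call by limma-voom: a Benjamini-Hochberg adjusted p no higher than 0.05, a log2 fold change of 0.4 or more in size, and a group mean over 1 FPKM. Of all 17863 genes tested, 52.2% met these between the lines (27.9% higher and 24.3% lower in PANC-1). MYC was lower in PANC-1, with a log2 fold change of -1.44 (SE 0.11, limma-voom adjusted p = 8.5e-08), MAX was lower by -0.74 (SE 0.09) and MXD4 by -0.98 (SE 0.22). MXD1 was higher by 1.01 (SE 0.18), MNT by 0.94 (SE 0.19) and MXI1 by 0.58 (SE 0.14). Controls of the lines did not overlap for MYC (92.3 and 99.3 FPKM in Mia-PaCa-2, 38.0 and 34.7 in PANC-1) or for MAX (36.6 and 40.1 against 22.1 and 18.2). MXD3 differed by -0.71 (SE 0.34, limma-voom adjusted p = 0.0812), MLX by -0.16 and MGA by 0.22, which were not called. The MXD3 difference became a call without PANC-1 control replicate 1 (-1.06) and without either PANC-1 library treated with both drugs (-0.76 and -0.7), and with the GC correction (-0.91, adjusted p = 0.00192 by limma-voom).

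**Figure D1:**
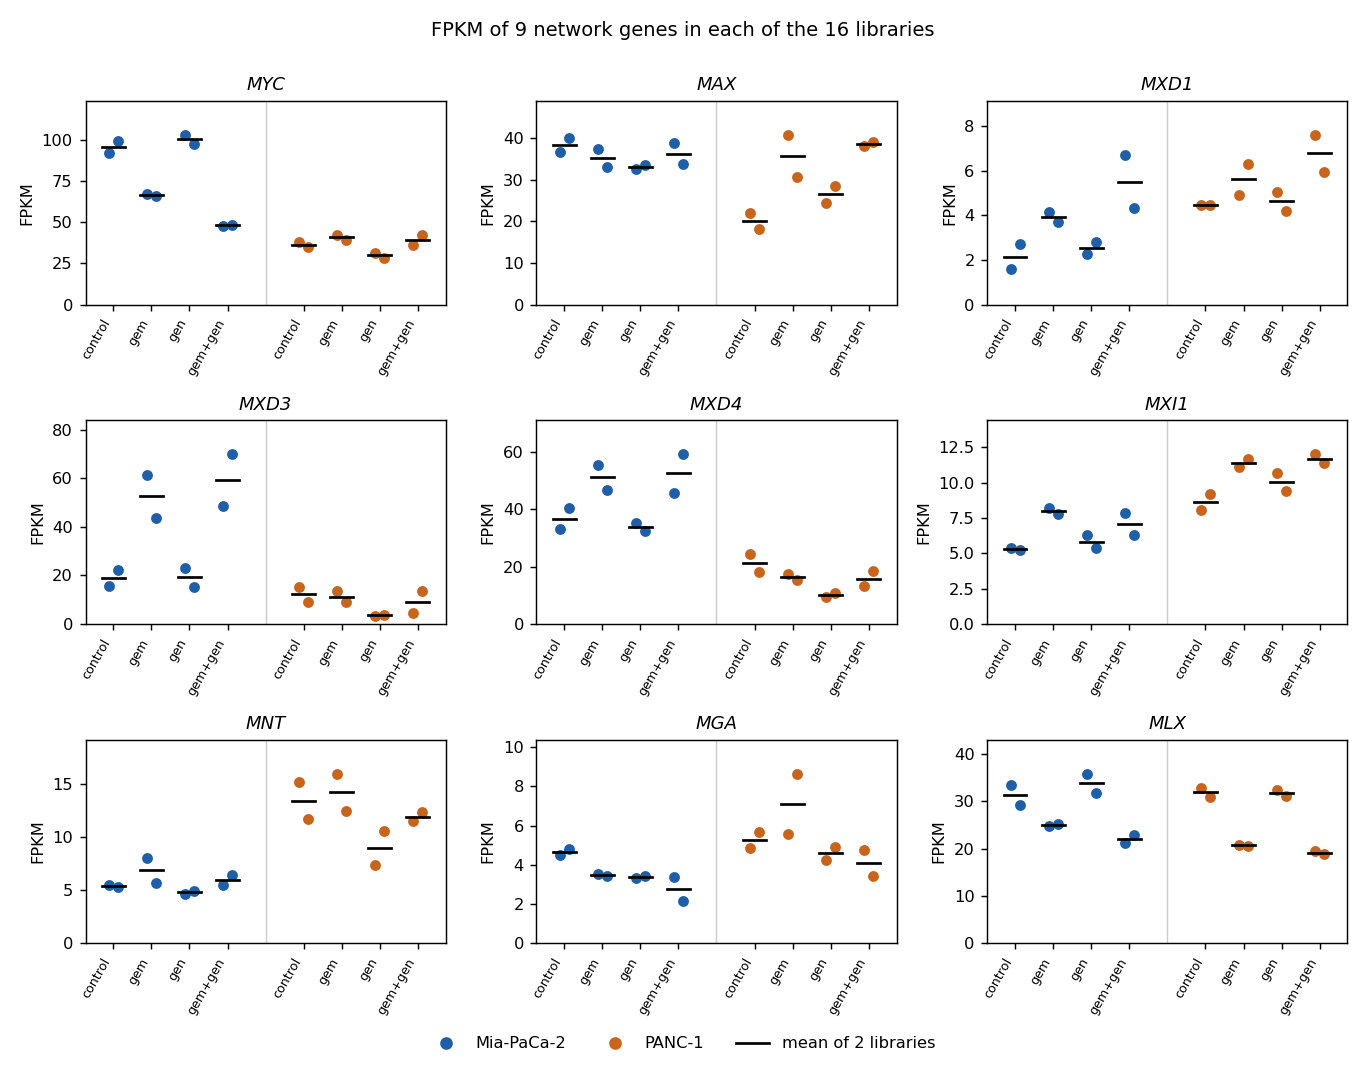
FPKM of 9 members in each library (y axis, from 0 in every panel), with Mia-PaCa-2 on the left and PANC-1 on the right of each panel. Points are libraries and bars are means of 2 (gem, gemcitabine; gen, genistein). MYC falls from 95.8 to 66.6 and 48.0 FPKM in Mia-PaCa-2 with gemcitabine and with both drugs, while the PANC-1 libraries lie between 28.3 and 42.4 FPKM.

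Gemcitabine lowered MYC in Mia-PaCa-2 and raised 3 of its MAX-dependent antagonists. Of the 9 members tested, 3 rose and 3 fell, where 29.6% of all 16064 genes tested were called (15.0% higher and 14.6% lower). Scaling by library size alone gave 3079 genes higher and 1554 lower there, beside 2402 and 2345. MYC itself read 92.3 and 99.3 FPKM in the control libraries and 67.2 and 66.0 FPKM after gemcitabine. The groups did not overlap, and the fold was 0.639 (log2 fold change -0.65, SE 0.08, limma-voom adjusted p = 8.0e-05). The fall was called in all 8 fits that left out 1 library and in all 12 other alternatives, with a log2 fold change between -0.72 and -0.52.

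Among the antagonists, MXD3, a repressor usually found in cells in S phase, moved most. Its controls read 15.5 and 22.2 FPKM and its gemcitabine libraries 61.2 and 43.7 FPKM, without overlap, for a log2 fold change of 1.30 (SE 0.21, limma-voom adjusted p = 5.5e-04). MXD1, a repressor induced during differentiation, read 1.59 and 2.71 against 4.13 and 3.72 FPKM, and rose by 0.83 (SE 0.16, limma-voom adjusted p = 0.00191). MXD4, the most abundant MXD family member in untreated cells, read 33.0 and 40.4 against 55.4 and 46.8 FPKM, and rose by 0.63 (SE 0.14, limma-voom adjusted p = 0.00315). All 3 rises were also called by edgeR and DESeq2, but limma on log2(FPKM + 1) called only MXD3 of them, with MXD1 at 0.67 (limma adjusted p = 0.0766) and MXD4 at 0.47 (limma adjusted p = 0.066).

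MXD4 was the least secure of these calls. The dependence of counts on the GC content of genes varied among libraries and moved with the drug in Mia-PaCa-2, where the slope was -0.22 and -0.13 log2 units per 10 points of GC in the controls, and 0.14 and 0.05 after gemcitabine. MXD4 has exons of 60.1% GC and MXD3 of 58.4%, against 42.7% for MXD1 and 51.7% for MYC. With this trend removed the MXD4 change was 0.35, under the fold threshold, while MXD3 stood at 1.08, MXD1 at 1.0 and MYC at -0.72 and all 3 remained called. Without gemcitabine replicate 1 the MXD4 change was 0.51 with a limma-voom adjusted p of 0.0514.

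MXI1 and MNT, the other MAX-dependent repressors, were not called. MXI1 read 5.39 and 5.22 FPKM in controls and 8.22 and 7.76 FPKM with gemcitabine, yet the test on counts gave 0.32 (SE 0.15, limma-voom adjusted p = 0.103). It passed when counts were scaled by library size alone (0.43). MNT read 5.54 and 5.27 FPKM in controls and 8.06 and 5.72 FPKM with gemcitabine, without overlap. On counts its log2 fold change was 0.17 (SE 0.15, limma-voom adjusted p = 0.399).

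MGA and MLX fell with gemcitabine in Mia-PaCa-2. MGA read 4.52 and 4.82 FPKM in controls and 3.54 and 3.41 FPKM after the drug, a log2 fold change of -0.69 (SE 0.14, limma-voom adjusted p = 0.00273), which missed the threshold without control replicate 1 (-0.55, adjusted p = 0.0528 by limma-voom) and on log2(FPKM + 1) (-0.34, adjusted p = 0.198 by limma). MLX read 33.5 and 29.2 against 24.7 and 25.1 FPKM, a change of -0.42 (SE 0.10, limma-voom adjusted p = 0.00539). This was close to the fold threshold and was lost without gemcitabine replicate 1 (-0.35), without control replicate 1 (-0.37), by DESeq2 (-0.4), with library size alone (-0.31), on log2(FPKM + 1) (-0.32) and with all 16 libraries in the model (-0.36). MAX, the shared partner of MYC and its antagonists, read 36.6 and 40.1 against 37.5 and 33.0 FPKM, with a log2 fold change of -0.05 (95% interval -0.26 to 0.16).

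Genistein alone moved no member past the threshold in Mia-PaCa-2, where 8.31% of all genes were called (4.18% higher and 4.13% lower). By limma-voom 0 of 9 members were called, and by edgeR and DESeq2 also 0, although 2 members (MGA and MXD1) had an unadjusted p under 0.05. MYC read 103.3 and 97.6 FPKM beside controls of 92.3 and 99.3, a log2 fold change of 0.10 with a 95% interval from -0.07 to 0.27. MXD1 had a log2 fold change of 0.42 (SE 0.17, limma-voom adjusted p = 0.131) and was called once the GC trend was removed (0.46).

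When genistein was added to gemcitabine, MYC went lower still in Mia-PaCa-2. It read 47.9 and 48.2 FPKM with both drugs beside 67.2 and 66.0 FPKM with gemcitabine alone, a fold of 0.736 (log2 fold change -0.44, SE 0.08, limma-voom adjusted p = 0.00849). MYC was the only 1 of 9 members called there, beside 5.88% of all genes (4.05% higher and 1.83% lower). The call was lost without gemcitabine replicate 1 or 2 (-0.44 in each, with limma-voom adjusted p of 0.0907 and 0.0818), and with all 16 libraries (-0.44). The interaction, which asks whether the pair of drugs departed from the sum of their single effects, was -0.54 for MYC (SE 0.11) with a limma-voom adjusted p of 0.18. It passed for 0 of 9 members by limma-voom and edgeR, with 1 (MYC) at an unadjusted p under 0.05, and for 1 (MYC) by DESeq2 (-0.55), and 0.0249% of all genes passed by limma-voom (0.00623% above and 0.0187% below 0). With the GC correction the interaction of MYC also passed (-0.5, limma-voom adjusted p = 0.0392), but not when replicate number was added to that model. DESeq2 passed 46 genes for this interaction and the GC correction 86, where the uncorrected limma-voom test passed 4.

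With both drugs against control, the same 6 members as with gemcitabine alone were called in Mia-PaCa-2, beside 40.5% of all genes (20.3% higher and 20.2% lower), and this comparison shares its controls with the one of gemcitabine. MYC fell by 1.09 on the log2 scale to a fold of 0.47 (SE 0.08, limma-voom adjusted p = 7.6e-07). MXD3 rose by 1.44 (SE 0.21), MXD1 by 1.15 (SE 0.16) and MXD4 by 0.72 (SE 0.14), while MGA changed by -1.04 (SE 0.15) and MLX by -0.64 (SE 0.10). MAX stayed within -0.22 to 0.20 (95% interval), and MXI1 and MNT were again not called (0.15 and 0.26).

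**Figure D2:**
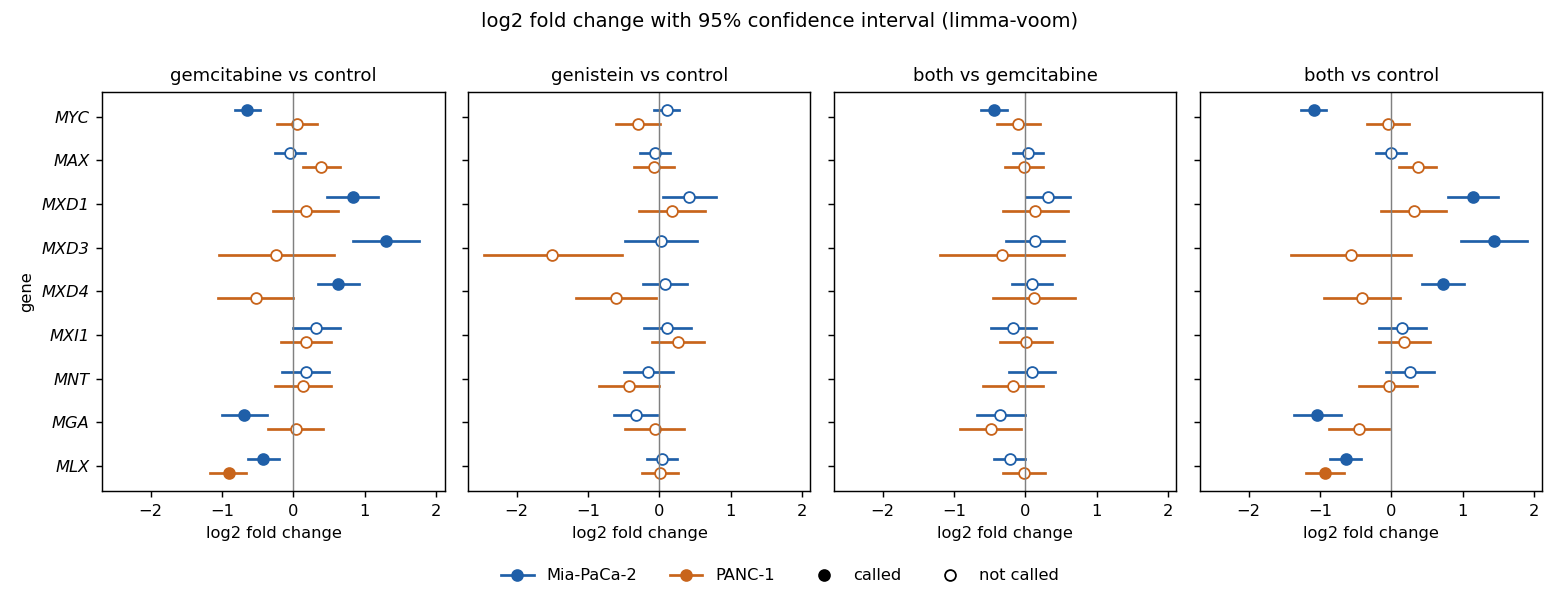
log2 fold change of 9 members (x axis) in 4 comparisons, with 95% confidence intervals from limma-voom and 2 libraries per group. Filled points were called. With gemcitabine against control, 6 points of Mia-PaCa-2 but only MLX of PANC-1 are filled.

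PANC-1 showed another pattern. Gemcitabine called 1 of 9 members, beside 7.52% of all 16909 genes tested (4.49% higher and 3.03% lower), and that gene was MLX. Scaling by library size alone gave 1167 genes higher and 317 lower, beside 759 and 513. MLX read 32.8 and 30.9 FPKM in controls and 20.8 and 20.5 FPKM after gemcitabine, a fold of 0.531 (log2 fold change -0.91, SE 0.11, limma-voom adjusted p = 0.00522). Its groups did not overlap. The change stayed between -1.02 and -0.85 when 1 library was left out, but the limma-voom adjusted p was 0.068 without gemcitabine replicate 1 and 0.09 without gemcitabine replicate 2, so 0 members were called there.

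MYC was not called in PANC-1. It read 38.0 and 34.7 FPKM in controls and 42.1 and 39.4 FPKM with gemcitabine, a change of 0.05 with a 95% interval from -0.23 to 0.33. MAX read 22.1 and 18.2 against 40.8 and 30.7 FPKM. On counts the change of MAX was 0.39 (SE 0.11, limma-voom adjusted p = 0.071), just outside the thresholds, and it was called with library size alone (0.5) and with the GC trend removed (0.42). The antagonists MXD3 and MXD4 had changes of -0.24 (SE 0.35) and -0.53 (SE 0.23), which were not called. MXD4 was called without PANC-1 control replicate 2 (-0.84).

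Genistein called 0 of 9 members in PANC-1 by limma-voom and edgeR and 1 by DESeq2, with 2 (MXD3 and MXD4) at an unadjusted p under 0.05, beside 0.0591% of all genes by limma-voom (0.0591% higher and 0% lower). DESeq2 called 754 genes in that comparison (237 higher and 517 lower) where limma-voom called 10. MXD3 read 15.2 and 9.09 FPKM in controls and 3.45 and 3.5 FPKM with genistein. The groups did not overlap, and its counts were 323 and 318 in controls and 64 and 49 with genistein, from libraries of unequal depth. The change was -1.50 (SE 0.42, limma-voom adjusted p = 0.141), and it was called by DESeq2 (-1.58), with the GC trend removed (-1.33) and with only the 4 libraries compared (-1.55). MXD4 read 24.2 and 18.0 against 9.27 and 10.8 FPKM, with a change of -0.61 (SE 0.24) that was not called. The GC slope was 0.28 and -0.07 in the PANC-1 controls and -0.07 and -0.14 with genistein. The response to genistein differed between the lines for 0 of 9 members by limma-voom, edgeR and DESeq2, with 3 (MXD3, MXD4 and MYC) at an unadjusted p under 0.05, beside 0.0336% of all genes (0.00560% above and 0.0280% below 0).

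Adding genistein to gemcitabine called 0 of 9 members in PANC-1 by limma-voom, edgeR and DESeq2, with 1 (MGA) at an unadjusted p under 0.05, beside 0.0177% of all genes (0.0118% higher and 0.00591% lower). MGA had a log2 fold change of -0.48 (SE 0.18, limma-voom adjusted p = 0.325). The interaction passed for 0 of 9 members by the same tools, with 0 at an unadjusted p under 0.05, and for 0% of all genes. With both drugs against control, MLX was again the 1 member called, beside 17.1% of all genes (10.2% higher and 6.90% lower), at 19.4 and 18.9 FPKM (log2 fold change -0.93, SE 0.11, limma-voom adjusted p = 0.00204). MAX read 38.2 and 39.0 FPKM with both drugs, above its controls of 22.1 and 18.2, yet its change in counts was 0.37 (SE 0.11, limma-voom adjusted p = 0.0554). MGA had a log2 fold change of -0.46 (SE 0.18), which was not called, and was called without PANC-1 control replicate 1 (-0.65).

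The response to gemcitabine differed between the lines for 4 of 9 members, beside 15.3% of all 17863 genes (6.21% above and 9.06% below 0), when the difference itself was tested with all 16 libraries in one model. The PANC-1 minus Mia-PaCa-2 difference was 0.60 for MYC (SE 0.16, limma-voom adjusted p = 0.024), so the fall was larger in Mia-PaCa-2. It was -1.26 for MXD4 (SE 0.31, limma-voom adjusted p = 0.019) and -1.62 for MXD3 (SE 0.47, limma-voom adjusted p = 0.0352), the antagonists that rose in Mia-PaCa-2. MLX, which fell in both lines, differed by -0.60 (SE 0.15, limma-voom adjusted p = 0.0221). MXD1 (-0.75, adjusted p = 0.0583 by limma-voom) and MGA (0.62, adjusted p = 0.0806 by limma-voom) did not pass. By DESeq2 6 members passed, with MXD1 (-0.75, adjusted p = 0.0368 by DESeq2) and MAX (0.35, adjusted p = 0.0403 by DESeq2) added to the 4, and the GC correction also passed these 6 (MXD1 at -0.99 and MAX at 0.46). Over all genes DESeq2 passed 3291 and the GC correction 4594, where the uncorrected limma-voom test passed 2728. With 1 library left out, the 4 differences kept their direction but passed in 10 of 16 fits for MYC, 11 of 16 for MXD4, 11 of 16 for MLX and 6 of 16 for MXD3. None of the 4 passed without Mia-PaCa-2 control replicate 1 or 2. Without Mia-PaCa-2 gemcitabine replicate 1 only MLX passed and without replicate 2 only MXD4, without PANC-1 gemcitabine replicate 1 MLX and MXD4, and without PANC-1 gemcitabine replicate 2 or PANC-1 control replicate 1 only MYC. MYC also missed the threshold without PANC-1 control replicate 2 (0.43), and MXD3 without Mia-PaCa-2 genistein replicate 2 (-1.59) or either PANC-1 genistein library (-1.64 and -1.62).

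These shifts changed the proportion of MYC to the summed MXD family in Mia-PaCa-2. Over the summed FPKM of MXD1, MXD3, MXD4 and MXI1, MYC had a ratio of 1.66 and 1.41 in controls and 1.55 and 1.75 with genistein. The ratio was 0.521 and 0.647 with gemcitabine and 0.439 and 0.345 with both drugs, and these 4 libraries did not overlap with the other 4. In PANC-1 it lay between 0.733 and 1.1 in all 8 libraries. Controls there read 0.733 and 0.851, and every treated library lay above both. The values were 0.901 and 0.929 with gemcitabine, 1.1 and 1.01 with genistein, and 0.967 and 0.86 with both drugs. These are ratios of transcript levels and say nothing of protein. They leave out MNT and rest on the same FPKM values as above, without the GC correction. That correction lowered the MXD4 change with gemcitabine in Mia-PaCa-2 to 0.35.

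**Figure D3:**
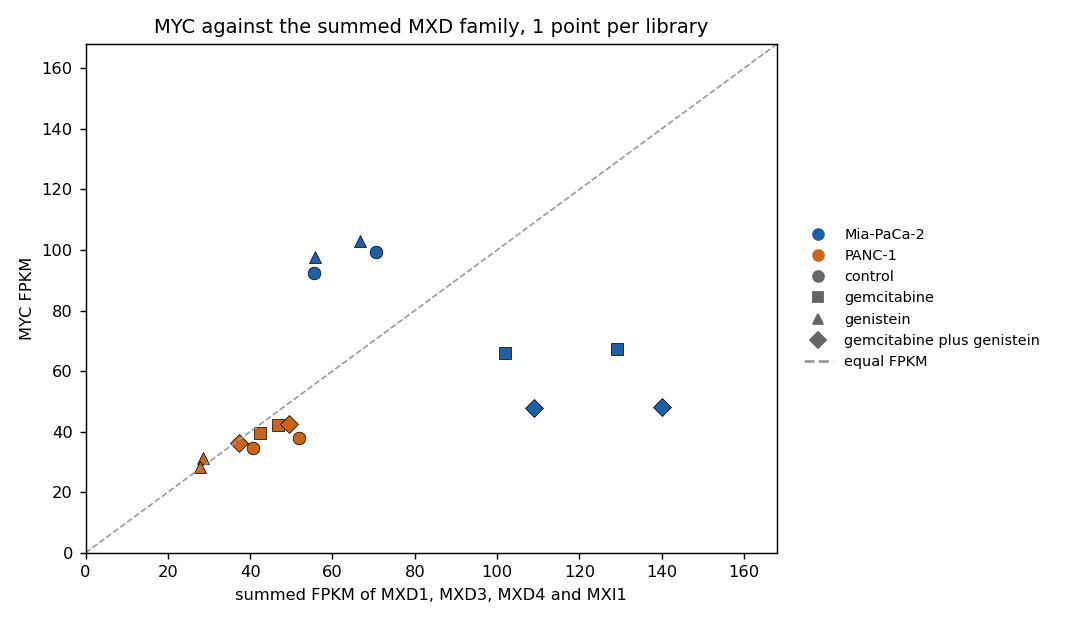
MYC FPKM (y axis) against the summed FPKM of MXD1, MXD3, MXD4 and MXI1 (x axis), 1 point per library, with a dashed line where both are equal. The 4 gemcitabine-treated Mia-PaCa-2 libraries lie right of and below the other 4, at ratios of 0.345 to 0.647, and all 8 PANC-1 libraries lie near the line.

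The transcript table gave more detail on which forms moved, with names from GENCODE 44 and with the caution that short single reads split poorly between isoforms. MYC was carried by MYC-205 and MYC-202, and both were lower after gemcitabine in Mia-PaCa-2. MYC-205 read 63.2 and 71.3 FPKM in controls and 45.9 and 47.0 with gemcitabine, and MYC-202 read 28.6 and 27.8 against 20.8 and 18.7. For MXD4, the coding transcript MXD4-201 read 17.3 and 17.6 FPKM in controls and 36.7 and 30.4 with gemcitabine in that line, whereas MXD4-204, annotated as a target of nonsense-mediated decay, read 11.4 and 18.4 against 14.2 and 12.4. For MXD3, the coding form MXD3-208 read 0.49 and 0.607 against 18.4 and 15.8 FPKM. No test was run on isoforms.

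Some members share exon sequence with other genes, and how the counting used strand is not given in the sources used here, although the kit marked strand. PSMC3IP, on the other strand, covers 18.21% of the exonic bases of MLX, and PSMC3IP was called higher with gemcitabine in both lines (0.91, SE 0.11, in Mia-PaCa-2 and 1.25, SE 0.13, in PANC-1), opposite to MLX. MXD3 overlaps RAB24 on the same strand over 19.52% and PRELID1 on the other strand over 24.2%. RAB24 rose with gemcitabine in Mia-PaCa-2 as MXD3 did (1.10, SE 0.28, limma-voom adjusted p = 0.00877), and PRELID1 was not called (-0.10). How far reads of RAB24 and MXD3 were mixed was not tested. MAX overlaps FNTB on the opposite strand over 13.14%.

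Genes that MYC is known to activate for ribosome production went lower with gemcitabine in Mia-PaCa-2. Of 30 genes of this list, all tested, 20 were called lower and 0 higher by limma-voom, with a median of -0.52 beside -0.01 over all genes, of which 14.6% were lower. Removing the GC trend gave 24 lower and 0 higher, and library size alone gave 16 lower and 0 higher. NOP58, a core protein of box C/D particles, changed by -1.36 (SE 0.17) and UTP20, a component of the small subunit processome, by -1.07 (SE 0.11). With both drugs against control 24 of 30 were called lower, with a median of -0.79, where 20.2% of all genes were lower. When genistein was added to gemcitabine 5 were lower (median -0.26, with 1.83% of all genes lower). Genistein alone gave 2 lower (median -0.02, with 4.13% of all genes lower). In PANC-1 the list stayed near all genes with gemcitabine, where 1 was higher, 1 was lower and the median was -0.02. Of all genes, 4.49% were higher and 3.03% lower there. RRP12, a ribosome export factor, rose there by 1.08 (SE 0.12) and fell in Mia-PaCa-2 by 0.59 (SE 0.10).

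Nucleotide, polyamine and metabolic genes that MYC activates gave fewer calls. Of 29 genes, 10 were lower and 0 higher with gemcitabine in Mia-PaCa-2 (median -0.32, with 14.6% of all genes lower), among them EIF4E, the cap-binding translation factor, at -1.16 (SE 0.22). With both drugs 13 were lower (median -0.35, with 20.2% of all genes lower). When genistein was added to gemcitabine, where MYC was lower, 3 were higher and 0 lower (median -0.03). Of all genes, 4.05% were higher and 1.83% lower in that comparison. Genistein alone gave 2 higher and 2 lower, where 4.18% and 4.13% of all genes were. The risers were ODC1, the first enzyme of polyamine synthesis, at 0.59 (SE 0.09), and IMPDH2, which feeds guanine nucleotide synthesis, at 0.43 (SE 0.08). In PANC-1 only 1 of 29 was called with gemcitabine, and it was lower, as were 3.03% of all genes. With both drugs in PANC-1, where MYC was not called, 1 was higher and 6 lower (median -0.11). Of all genes, 10.2% were higher and 6.90% lower there.

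Cell cycle genes linked to MYC moved both ways, in PANC-1 too. With gemcitabine, 4 of 16 were higher and 4 lower in Mia-PaCa-2, where 15.0% and 14.6% of all genes were, and 7 were higher and 2 lower in PANC-1, where 4.49% and 3.03% of all genes were. E2F2, an S phase transcription factor, rose by 0.97 (SE 0.10) in Mia-PaCa-2 and by 1.55 (SE 0.12) in PANC-1, and CDC25A, a phosphatase that starts S phase, by 0.74 (SE 0.11) and 1.10 (SE 0.12). PLK1 and CCNB1, which act in mitosis, changed by -0.85 (SE 0.10) and -0.82 (SE 0.08) in Mia-PaCa-2 and by -1.22 (SE 0.15) and -0.89 (SE 0.09) in PANC-1.

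Of 16 genes reported as repressed through MYC and its partner MIZ1, 14 were tested in each line. With gemcitabine 8 were higher and 1 lower in Mia-PaCa-2 (median 0.47), where 15.0% and 14.6% of all genes were. With both drugs 10 were higher and 1 lower (median 0.79), where 20.3% and 20.2% of all genes were. Genistein alone, where MYC was not called, gave 4 higher and 1 lower (median 0.26), beside 4.18% and 4.13% of all genes. Genistein added to gemcitabine gave 6 higher and 0 lower (median 0.32), beside 4.05% and 1.83% of all genes. CDKN1A, the cyclin-dependent kinase inhibitor p21, rose by 3.07 (SE 0.15) with gemcitabine, by 1.51 (SE 0.17) with genistein alone and again when genistein was added to gemcitabine. In PANC-1 CDKN1A had a log2 fold change of 0.42 (SE 0.14, limma-voom adjusted p = 0.107) with gemcitabine. There 3 genes of the list were higher, beside 4.49% of all genes. As background, several of these genes also respond to other stress signals.

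**Figure D4:**
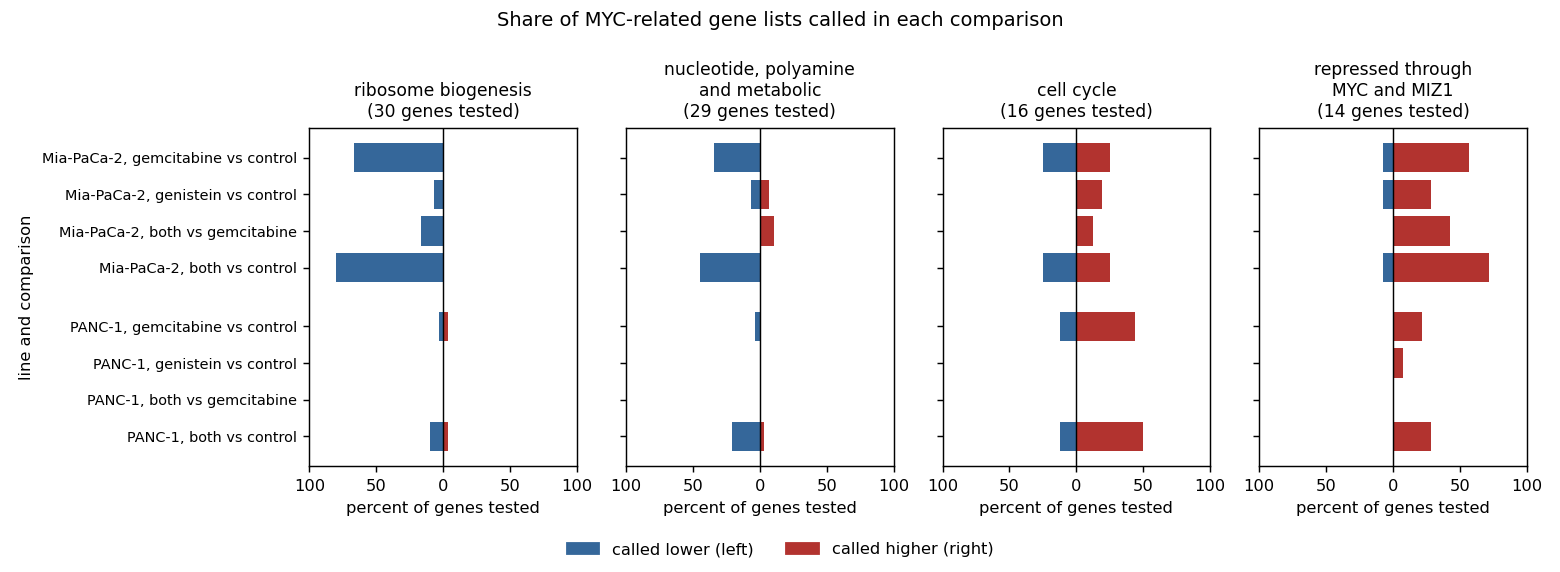
Share of the genes tested in 4 lists (x axis, percent) that were called lower (left of 0) or higher (right of 0) by limma-voom, for each line and comparison (y axis). In Mia-PaCa-2 with gemcitabine, 20 of 30 ribosome biogenesis genes are lower, while PANC-1 has 1 lower and 1 higher. Of all genes, 14.6% are lower in Mia-PaCa-2, and 3.03% are lower and 4.49% higher in PANC-1.

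Partners and relatives outside the 10 genes gave mixed calls. Of 19 genes, 3 were higher and 3 lower with gemcitabine in Mia-PaCa-2 (15.0% and 14.6% of all genes), and 0 were higher and 1 lower in PANC-1 (4.49% and 3.03% of all genes). These counts were close to the shares over all genes. MYCL, the third MYC paralogue, rose in Mia-PaCa-2 by 1.18 (SE 0.23) with gemcitabine, by 1.03 (SE 0.24) with genistein and by 2.48 (SE 0.22) with both. MYC fell with gemcitabine and with both drugs there and was not called with genistein. MLXIPL, the partner of MLX also called ChREBP, rose by 0.74 (SE 0.16) with gemcitabine in Mia-PaCa-2, and BPTF, a chromatin remodelling subunit, changed by -0.67 (SE 0.13). Of 5 targets of the MondoA and MLX dimer, 3 were higher with gemcitabine in PANC-1 and 0 lower, where 4.49% of all genes were higher. TXNIP, the best known of them, rose there by 1.05 (SE 0.12) and ARRDC4, its relative, by 1.15 (SE 0.23), in the libraries where MLX was lower. In Mia-PaCa-2, 4 were tested, of which 1 was higher (TXNIP, 0.47) and 1 lower (ARRDC3, -0.61), where 15.0% and 14.6% of all genes were.

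Among 16 genes that control the turnover of MYC protein, 1 was higher and 6 lower with gemcitabine in Mia-PaCa-2 (median -0.34). Of all genes, 15.0% were higher and 14.6% lower there. PANC-1 gave 1 higher and 1 lower, where 4.49% and 3.03% of all genes were. USP36, a nucleolar enzyme that removes ubiquitin from MYC, fell in Mia-PaCa-2 by 0.42 (SE 0.09) and rose in PANC-1 by 1.24 (SE 0.10). AURKA, a mitotic kinase that can stabilise MYC family proteins, changed by -0.68 (SE 0.09) and -0.56 (SE 0.08). PVT1, a noncoding RNA next to MYC on chromosome 8, changed by -0.46 (SE 0.14, limma-voom adjusted p = 0.0212) with gemcitabine in Mia-PaCa-2, and its value in PANC-1 was 0.18 (SE 0.13), which was not called.

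The genes whose pattern was most like that of MYC were found by Pearson correlation of log2 counts scaled to library size over 16 libraries, each line centred on its own mean, among 17863 genes. They were PPRC1 (r = 0.972), NOB1 (0.972), URB2 (0.971), MRTO4 (0.967) and CLDN11 (0.953). PPRC1 and MRTO4 also belong to the ribosome list above. Within Mia-PaCa-2 r ran from 0.979 (PPRC1) to 0.995 (CLDN11) for these genes. Within PANC-1 it was lower, from 0.63 (CLDN11) to 0.932 (PPRC1). For MXD4 the closest were SHKBP1 (0.979), ALKBH7 (0.976), MRC2 (0.973), SPATA20 (0.965) and DNAJC4 (0.965). For MAX they were DHRS9 (0.961), FOSL2 (0.951), CCDC65 (0.949), ZNF669 (0.942) and ZNF317 (0.941), and here r ran from 0.963 to 0.987 within PANC-1 and from -0.671 to 0.383 within Mia-PaCa-2. The libraries share depth and GC trend, and these values are descriptions without a test.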

How the data were processed

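RNA-Seq of 16 poly-A libraries (stranded kit, single short reads) was analysed. According to the submitters' processing notes and the methods, the authors mapped reads to GRCh37 with TopHat2 2.0.4, removed reads with multiple alignments with Picard 1.29 and counted with HTSeq 0.6.1, and the deposited count table holds whole, unnormalized counts per gene. The deposited FPKM values per gene and per isoform came from Cufflinks 2.1.1, run by the authors, and take account of the length of each transcript and of sequencing depth. The annotation release and the strand setting are not given in the sources used here. FPKM is fitted over isoforms and counts are not, so the 2 can differ in size of change.

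The limma package (3.58.1, under R 4.3.3) was used with voom weights on the counts, after TMM scaling and filterByExpr of edgeR 4.0.16, with the 8 libraries of a line in one model. The study names limma-voom, and the scaling, filter and model were chosen here. All 16 libraries entered one model for differences between the lines. Of the genes counted, 16064 were tested in Mia-PaCa-2, 16909 in PANC-1 and 17863 over both, with P values adjusted over all of them, two-sided. Interactions and differences of response were judged by adjusted p alone. Alternatives were edgeR's quasi-likelihood test, DESeq2 1.42.0, other scalings, no filter, log2(FPKM + 1), other sets of libraries, a GC correction, adjusted p alone and leaving out each library. The fits were checked on simulated counts for gemcitabine against control. There limma-voom recovered 95.9% of true log2 changes of 1 in Mia-PaCa-2 and 75.7% in PANC-1. Of changes of 2 it recovered 100% in each line. Of unchanged genes, 14 of 15549 were called in Mia-PaCa-2 and 18 of 16398 in PANC-1. Smaller changes were not simulated. The changed genes were few and well counted, calls used adjusted p alone, and no GC trend was added. The check thus does not cover the fold and FPKM limits or the GC trends of the real libraries. Groups came from the labels. With 2 replicates per group, each SD rests on 2 values, and the replicates measure the spread between cultures of one line.

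Named were all 10 members, from each list at most the 2 strongest risers and 2 strongest fallers among called genes for either drug in either line, and the 5 genes most like MYC, MAX and MXD4. The members and lists were chosen with earlier results of these data known. Promoters came from RefSeq (GRCh38.p14). The lists have 30, 29, 16, 16, 19, 16, 5 and 4 genes, and HK2 is in 2 of them.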

Additional observations from a re-analysis of the deposited data

Results flagged for a closer look

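The response to gemcitabine differed between the lines for 4 members in the test of the difference itself (PANC-1 minus Mia-PaCa-2, limma-voom with 16 libraries). The difference was 0.60 for MYC, -0.60 for MLX, -1.26 for MXD4 and -1.62 for MXD3 on the log2 scale. MXD3 and MXD4 rose in Mia-PaCa-2, and their values in PANC-1 (-0.24 and -0.53) were not called. With the GC trend removed the differences were 0.78, -0.37, -0.81 and -1.24, and all 4 passed, as did MXD1 (-0.99) and MAX (0.46), which made 6 members. Groups of 2 libraries are too small to look for single libraries that stand apart.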

How the results depend on the processing

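Over 2445 values of single members under the alternatives, 49 lost a call, 38 gained one and 0 reversed a called direction, while 145 changed sign with no call on either side. Scaling by library size alone moved the median of all genes from -0.01 to 0.09 with gemcitabine in Mia-PaCa-2 and from 0.03 to 0.14 in PANC-1. Over all genes, the GC correction raised the count called from 945 to 1535 for added genistein in Mia-PaCa-2, and in PANC-1 from 1272 to 2988 (gemcitabine), 10 to 1210 (genistein), 3 to 1197 (added genistein) and 2897 to 4814 (both drugs), and from 2728 to 4594 for the response to gemcitabine between lines. On log2(FPKM + 1) the counts were 230 beside 1335 (genistein, Mia-PaCa-2), 83 higher and 21 lower beside 945 in all (added genistein, Mia-PaCa-2), 614 beside 1272 (gemcitabine, PANC-1) and 1618 beside 2728 (response between lines). With all 16 libraries the first 3 were 588, 492 and 2409, and with only the 4 libraries compared gemcitabine gave 470 and both drugs 574 in PANC-1. With both drugs in PANC-1, library size alone gave 2686 higher and 677 lower, beside 1730 and 1167. The number of members called moved as follows, and the cause was not tested. On log2(FPKM + 1), where small values are damped, gemcitabine called 2 in Mia-PaCa-2 (MXD3 and MYC), the added genistein 0, both drugs 2 in PANC-1, and the difference between lines passed for 2 (MAX and MYC). The GC correction gave 1 for genistein in Mia-PaCa-2, 1 for the interaction there, 2 for gemcitabine, 1 for genistein, 1 for added genistein and 2 for both drugs in PANC-1, and with the replicate block it gave 1, 0, 2, 1, 0 and 2. DESeq2 gave 1 for the interaction in Mia-PaCa-2 and 1 for genistein in PANC-1, library size alone gave 2 for gemcitabine and 2 for both drugs in PANC-1, all 16 libraries gave 0 for added genistein in Mia-PaCa-2 and 2 for both drugs in PANC-1, and the 4 libraries compared gave 1 for genistein in PANC-1. Leaving out 1 library gave 4 to 6 (gemcitabine), 0 to 2 (added genistein) and 6 to 7 (both drugs) in Mia-PaCa-2, 0 to 2 (gemcitabine) and 1 to 2 (both drugs) in PANC-1, 6 to 7 between the untreated lines and 0 to 5 for the response to gemcitabine between lines. With 2 libraries per group and only one left in an arm, the lone library is assumed to vary like the others.

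Deviations of same-numbered libraries correlated between -0.227 and 0.125 in Mia-PaCa-2 and between -0.52 and 0.295 in PANC-1, so without a steady sign. The labels do not say whether same-numbered libraries were handled together, and these values cannot settle it. A replicate block called 6 members for gemcitabine in Mia-PaCa-2 and 1 in PANC-1, as without it, and over all genes 4539 against 4747 and 442 against 1272, and 617 against 945 for added genistein in Mia-PaCa-2. MXD3 lost the difference between lines under the block (-1.62, limma-voom adjusted p = 0.0534). In PANC-1 models of 4 libraries, chosen after seeing the data, the same-numbered and crossed replicate block called 0 and 1 members for added genistein and 0 and 4 for both drugs.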
